A study of Mus musculus with 15 samples.

Results

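The choroid plexus is the secretory tissue inside the brain ventricles. Its epithelium makes most of the cerebrospinal fluid and releases carrier proteins and hormones into it, and it is a barrier between blood and fluid. The genes described here are 10 genes known for that epithelium, among the 46078 Ensembl genes of the count table: Ttr, Enpp2, Kl, Folr1, Prlr, Clic6, Kcnj13, Aqp1, Slc4a5 and Otx2. They were taken from the table by mouse symbol. All 10 were found and all 10 passed the filter on low counts.

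RNA was sequenced from a dissected brain region of 15 mice, 1 library per mouse, and the labels do not name the region. The 3 groups of 5 were wild-type mice given PBS (WT PBS), APP-PS1 mice given PBS (APP-PS1 PBS), and APP-PS1 mice that received a CD8a antibody (anti-CD8a), which binds the co-receptor of cytotoxic T cells. APP-PS1 mice are a model of cerebral amyloid: they carry the transgenes Mo/HuAPP695swe, a mouse-human hybrid of the amyloid precursor with the Swedish mutation, and PS1-dE9, a mutant human presenilin, and the prion protein promoter directs both to neurons. All mice were 12 months old, of either sex, were treated for 4 weeks and were perfused before dissection; the antibody was given in 10 injections of 0.8 mg and PBS as 100 µL. Libraries held 17736524 to 36485809 counts, so 3 counts, taken as the floor of detection, were 0.0824 to 0.166 CPM (counts relative to library size, scaled by TMM, edgeR's normalization). The sexes were unequal between groups by label. In WT PBS only replicate 5 was labelled male. In APP-PS1 PBS replicates 1 to 3 were labelled male, and in anti-CD8a mice replicates 1, 4 and 5. The label of APP-PS1 PBS replicate 1 (male) went against its Xist and Y-linked genes. Each mouse is a separate animal by its number in the labels.

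In this epithelium the secreted proteins and the ion and water carriers have known places. Transthyretin (Ttr) carries thyroid hormone and, with retinol-binding protein, vitamin A, and it also binds amyloid beta. Autotaxin (Enpp2) makes the signalling lipid lysophosphatidic acid. Klotho (Kl) is a co-receptor for the hormone FGF23, folate receptor alpha (Folr1) moves folate into the fluid, and Prlr is the prolactin receptor. Among the transport genes, Aqp1 encodes a water channel, Kcnj13 the potassium channel Kir7.1, Slc4a5 a sodium bicarbonate cotransporter, and Clic6 a protein of the chloride intracellular channel family. Otx2 encodes a homeodomain transcription factor needed to form this epithelium and to maintain it.

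The genes lie on 8 chromosomes of GRCm38. Enpp2 (chr15:54838901-54952892) and Prlr (chr15:10177238-10349180) share a chromosome, as do Aqp1 (chr6:55336432-55348555) and Slc4a5 (chr6:83219828-83304945). The remaining positions given here are Kl (chr5:150952607-150993817), Folr1 (chr7:101858331-101870788), Clic6 (chr16:92485736-92541243), Kcnj13 (chr1:87386363-87394729) and Otx2 (chr14:48657677-48673819). Because members varied together, the 250 bases before the start site were read from RefSeq (GRCm38.p6) for the 6 members its promoter table holds, Aqp1, Kcnj13, Kl, Otx2, Prlr and Slc4a5. They were searched on both strands for TAATCC, the word that OTX proteins recognise, and its reverse complement GGATTA. The upstream windows of 3 members with 1 listed start and no overlapping exon are shown, 5′ to 3′ on the gene's own strand, as the sequence next to which these transcripts begin. Capitals would mark the word, and none of the 3 windows has it.
Kl, chr5:150952357-150952606, + strand: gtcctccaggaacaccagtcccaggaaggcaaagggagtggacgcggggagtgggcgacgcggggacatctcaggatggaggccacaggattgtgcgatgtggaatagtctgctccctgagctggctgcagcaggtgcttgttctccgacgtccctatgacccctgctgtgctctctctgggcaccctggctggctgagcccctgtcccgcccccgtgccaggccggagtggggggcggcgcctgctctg
Kcnj13, chr1:87394730-87394979, − strand: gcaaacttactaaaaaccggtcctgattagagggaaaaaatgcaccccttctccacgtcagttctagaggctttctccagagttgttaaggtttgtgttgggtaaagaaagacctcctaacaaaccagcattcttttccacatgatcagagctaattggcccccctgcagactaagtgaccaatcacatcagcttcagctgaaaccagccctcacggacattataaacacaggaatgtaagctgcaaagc
Aqp1, chr6:55336049-55336298, + strand: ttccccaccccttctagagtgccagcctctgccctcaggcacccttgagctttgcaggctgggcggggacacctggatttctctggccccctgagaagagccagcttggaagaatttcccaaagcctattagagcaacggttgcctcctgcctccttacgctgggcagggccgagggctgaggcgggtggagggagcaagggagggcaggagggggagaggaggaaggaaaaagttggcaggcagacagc
Of the 6 members, 1 had the word in a window: Otx2 itself, as GGATTA 211 bases before 1 of its listed starts. The word is in 2054 of the 32851 windows of this length in the table, or 6.25%. That share is of windows and not of genes, and Otx2 and Prlr each have several windows, so the count of members is not alike to it. The search is a description of letters and not of binding.

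The 10 genes varied together from library to library, and the 3 groups overlapped in each of them. Ttr stood at 107, 29.6, 2216, 90.0 and 6468 CPM in WT PBS replicates 1 to 5. In APP-PS1 PBS replicates 1 to 5 it stood at 52.1, 4122, 57.1, 29.8 and 1652 CPM. In anti-CD8a replicates 1 to 5 it stood at 1860, 50.9, 50.7, 20.7 and 22.7 CPM. Thus 5 libraries were above 1000 CPM, WT PBS replicates 3 and 5, APP-PS1 PBS replicates 2 and 5 and anti-CD8a replicate 1, and the other 10 were at most 107 CPM; the former are called the libraries rich in Ttr and the latter the lower libraries. The lowest of the 5 was 15.4-fold above the highest of the 10. For the 9 members other than Ttr, too, every one of these 5 libraries was above every one of the 10 others. For Ttr this follows from how the libraries were chosen. The share of all genes that divide this way was not counted, here or for the gene lists below. All 10 members were also highest in WT PBS replicate 5 and second in APP-PS1 PBS replicate 2, whereas anti-CD8a replicate 1 was the lowest of the 5 for 7 of them. Of the 5 libraries, 3 are labelled male and 2 female. Together the 10 genes took 1.09% of the counts of WT PBS replicate 5 and 0.0257% of those of WT PBS replicate 2. In tissue RNA of this kind, fewer cells of a type and less RNA per cell cannot be told apart.

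**Figure D1:**
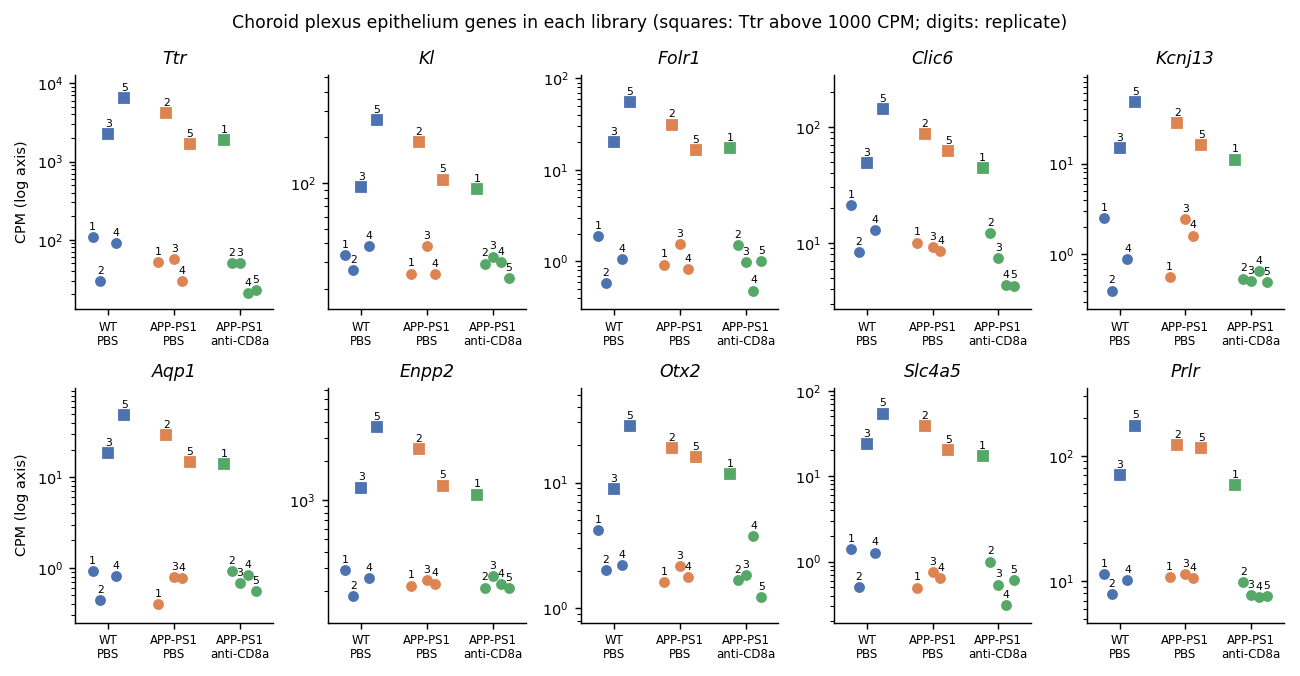
CPM of the 10 genes (log axes) in each library, by group; each point is a mouse, digits are replicate numbers, and squares are the 5 libraries above 1000 CPM of Ttr. The same 5 squares lie above all circles in every panel, with WT PBS replicate 5 highest throughout, and the 3 groups overlap in all 10 panels.

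The other secreted product, Enpp2, followed Ttr from a higher base. It stood at 291, 183, 1249, 251 and 3652 CPM in WT PBS, replicates 1 to 5. In APP-PS1 PBS it stood at 220, 2465, 243, 228 and 1293 CPM. In anti-CD8a it stood at 1100, 212, 259, 227 and 209 CPM. The 10 lower libraries spanned only 1.59-fold (183 to 291 CPM), where Ttr spanned 5.19-fold. Oligodendrocytes also express Enpp2, and the summed level of their 10 markers was 5472 to 7406 CPM over the 15 libraries; its part in the base level was not tested. Compared per length of exon, Ttr and Enpp2 were the highest 2 members in all 15 libraries. Ttr exceeded Enpp2 in 10 libraries (5453 against 632 CPM per kb in WT PBS replicate 5), and Enpp2 exceeded Ttr in 5 (31.7 against 24.9 CPM per kb in WT PBS replicate 2).

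Among the receptors, Kl kept a base level in every library and Folr1 nearly disappeared from the 10 lower ones. Kl stood at 33.4, 26.8, 94.4, 38.5 and 259 CPM in WT PBS. It stood at 25.3, 186, 38.2, 25.1 and 105 CPM in APP-PS1 PBS, and at 91.6, 29.4, 32.7, 30.0 and 23.5 CPM in anti-CD8a mice. Its whole range was 11.0-fold, the smallest of the 10 genes. Folr1 stood at 1.90, 0.580, 20.1, 1.06 and 55.0 CPM in WT PBS. It stood at 0.926, 31.2, 1.55, 0.824 and 16.4 CPM in APP-PS1 PBS, and at 17.3, 1.51, 0.977, 0.482 and 1.02 CPM in anti-CD8a mice. Its range was 114-fold, resting at the low end on 14 counts. Prlr stood at 11.4, 7.87, 70.2, 10.3 and 174 CPM in WT PBS. It stood at 10.7, 122, 11.3, 10.6 and 114 CPM in APP-PS1 PBS, and at 58.6, 9.87, 7.78, 7.5 and 7.67 CPM in anti-CD8a mice. The lower 10 libraries differed by at most 1.53-fold in Prlr, the narrowest span of any member.

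Of the channels and transporters, Slc4a5, Aqp1 and Kcnj13 had wide ranges, below the 312-fold of Ttr. Slc4a5 ranged 175-fold, from 0.310 CPM (9 counts) in anti-CD8a replicate 4 to 54.1 CPM in WT PBS replicate 5, with 17.3 to 54.1 CPM in the 5 libraries rich in Ttr and 0.310 to 1.39 CPM in the others. Aqp1 ranged 123-fold, with 13.9 to 48.7 CPM in the 5 and 0.397 to 0.917 CPM in the others, a gap of 15.1-fold that was close to that of Ttr. Clic6 ranged 32.8-fold, with 44.1 to 141 CPM in the 5 and 4.29 to 21.1 CPM in the others. Among the others Clic6 was highest in WT PBS replicate 1. So were all the members but Kl (9 of 10), which was highest there in WT PBS replicate 4. Kcnj13 stood at 2.5, 0.399, 15.0, 0.890 and 47.9 CPM in WT PBS. It stood at 0.562, 27.8, 2.43, 1.62 and 15.9 CPM in APP-PS1 PBS, and at 11.0, 0.542, 0.505, 0.654 and 0.495 CPM in anti-CD8a mice. Among its 10 lower libraries, then, WT PBS replicate 1 and APP-PS1 PBS replicates 3 and 4 stood above the other 7, and APP-PS1 PBS replicate 4 did so with little Ttr (29.8 CPM). Kcnj13 lies inside Gigyf2 on the opposite strand, and whether reads were counted by strand is not stated in the sources used; Gigyf2 itself varied only from 98.6 to 112 CPM.

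The transcription factor Otx2 departed from Ttr in anti-CD8a replicate 4. It stood at 4.17, 2.03, 8.92, 2.2 and 28.3 CPM in WT PBS. It stood at 1.62, 18.9, 2.18, 1.77 and 15.9 CPM in APP-PS1 PBS, and at 11.6, 1.68, 1.85, 3.75 and 1.24 CPM in anti-CD8a mice. Anti-CD8a replicate 4, with the lowest Ttr of all 15 libraries (20.7 CPM), thus held more Otx2 than 8 of the other lower libraries. In that library the summed level of 9 thalamic neuron markers was 541 CPM against 164 to 312 CPM in the other 14, and that of 12 ependymal markers was the lowest at 17.1 CPM. The pineal gland also expresses Otx2. Its 6 markers had a summed level of 0.946 to 2.42 CPM, with Asmt, the last enzyme of melatonin synthesis, at most at 0.0344 CPM. The part of thalamic, ependymal or pineal cells in the level of Otx2 was not tested. Otx2os1, the antisense transcript that overlaps Otx2, went from 0 to 1.49 CPM and, like Otx2, was highest in WT PBS replicate 5. In anti-CD8a replicate 4 it was at 0.0688 CPM. Reads of the pair cannot be told apart if strand was not used.

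Across the 10 lower libraries, where Ttr ran from 20.7 to 107 CPM, the relation of each other member to Ttr was examined. On log2(CPM + 1), 6 of the 9 relations to Ttr passed by Pearson's r and 4 by Spearman's rho. The test was by permutation, with Benjamini-Hochberg adjustment over the 9 (n = 10 libraries of all 3 groups, two-sided). The share of all genes that relate to Ttr in this way was not counted, so these counts are not read as a trait of the members. Clic6 was closest, with Pearson's r of 0.897 (permutation p = 0.00048, adjusted 0.00432) and Spearman's rho of 0.903 (permutation p = 0.00092, adjusted 0.00828). Slc4a5 had an r of 0.831 (permutation p = 0.00303, adjusted 0.0136) and a rho of 0.733 (permutation p = 0.021, adjusted 0.0473). Kl, Folr1, Enpp2 and Prlr had r of 0.685, 0.749, 0.701 and 0.709 (adjusted permutation p of 0.0469, 0.0385, 0.0469 and 0.0469), and of these Folr1 (0.782) and Prlr (0.842) also passed by rho (adjusted permutation p of 0.0301 and 0.0153) and Kl (0.648) and Enpp2 (0.636) did not (0.079 each). Kcnj13 (r = 0.487, rho = 0.624), Aqp1 (r = 0.365, rho = 0.358) and Otx2 (r = 0.287, rho = 0.333) did not pass by either measure, with permutation p of 0.148, 0.293 and 0.423 for r and 0.0615, 0.313 and 0.351 for rho, and adjusted values of 0.191, 0.33 and 0.423 for r and 0.079, 0.351 and 0.351 for rho. Without the 2 libraries farthest from the median Ttr, anti-CD8a replicates 4 and 5, r was between 0.401 and 0.811 over the 9 genes, and the order of the genes changed: Otx2 was at 0.679, above Kcnj13 (0.401), Prlr (0.485) and Aqp1 (0.509). The permutations ignored group, so differences between groups enter these relations. Among these libraries Ttr was highest in WT PBS replicates 1 and 4 and lowest in anti-CD8a replicates 4 and 5. Each group has too few of these libraries, 3 or 4, for a value of its own.

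In the 5 libraries rich in Ttr, proportions between members were compared, and 1 library stood apart. Each gene's CPM above its own lowest library was divided by that of Ttr and given per 1000 CPM of Ttr. Prlr came to 28.5 and 25.8 in WT PBS replicates 3 and 5, 27.9 in APP-PS1 PBS replicate 2 and 27.8 in anti-CD8a replicate 1, but to 65.4 in APP-PS1 PBS replicate 5. Clic6 was at 20.1 to 21.6 in the first 4 of these libraries and at 35.4 in APP-PS1 PBS replicate 5. Otx2 was at 3.50 to 5.66 in the 4 and at 8.99 in that replicate. That library also had the lowest Ttr of the 5 (1652 CPM), and Ttr is the denominator of all 9 proportions, so they are not separate observations. It had the highest proportion for all 9 genes, with the smallest excess over the other 4 in Aqp1 (1.06-fold) and Folr1 (1.07-fold) and larger ones in Prlr (2.29-fold), Clic6 (1.64-fold) and Otx2 (1.59-fold). Without it the proportions of the 9 genes spanned 1.07-fold (Clic6) to 1.62-fold (Otx2) over the 4 libraries; with it they spanned 1.23-fold to 2.57-fold. The Prlr value there rests on 2069 counts in the shallowest library (17736524 counts). WT PBS replicate 3 carries the same sex label, female, and had 28.5. The part of sex in the proportions was not tested. APP-PS1 PBS replicate 5 also held 2.59 CPM of Pou4f1, a transcription factor gene of the medial habenula, against at most 0.647 CPM elsewhere. This gene was picked out after its values were seen, and the part of habenular tissue in the proportions was not tested.

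**Figure D2:**
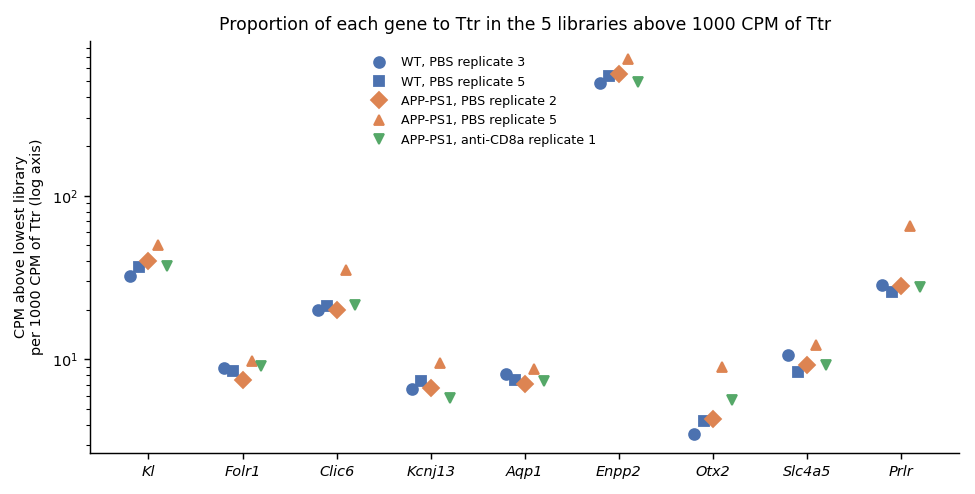
CPM above the lowest library per 1000 CPM of Ttr (log axis) for 9 genes in the 5 libraries above 1000 CPM of Ttr; each symbol is a library, coloured by group. APP-PS1 PBS replicate 5 (triangles pointing up) is highest for each gene, most clearly for Prlr (65.4 against 25.8 to 28.5) and Clic6 (35.4 against 20.1 to 21.6).

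The order of levels was read per length of exon in WT PBS replicate 5. Ttr was at 5453 CPM per kb and Enpp2 at 632 CPM per kb. Kcnj13 (37.7), Clic6 (36.0), Kl (27.8), Folr1 (24.0) and Aqp1 (18.5 CPM per kb) followed, and Prlr (11.3), Slc4a5 (9.31) and Otx2 (6.70 CPM per kb) were lowest. Clic6 was above Kcnj13 in the other 4 libraries rich in Ttr (12.4 against 11.8 CPM per kb in WT PBS replicate 3), so these neighbours in the order did not separate. Otx2 was the lowest of the 10 in 4 of the 5, Slc4a5 (3.50 against 3.77 CPM per kb) being lower in APP-PS1 PBS replicate 5. The length used is the union of annotated exons, which for Prlr (15.3 kb) includes much that a given transcript may lack.

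The genes with the most similar profile were named by a rule of likeness. Against the mean of the members' standardised log2(CPM + 1) profiles over the 15 libraries, the members had Pearson correlations of 0.973 (Clic6) to 0.995 (Enpp2). Of the 15604 other genes with a mean of at least 1 CPM, the 12 most alike had 0.989 to 0.997, and 10 of them were on the list of further choroid plexus genes. F5, coagulation factor V (0.997), went from 1.55 CPM in anti-CD8a replicate 4 to 127 CPM in WT PBS replicate 5. Kcne2, a potassium channel subunit (0.996), went from 0.378 to 42.4 CPM in the same libraries. Cldn2, the claudin of leaky tight junctions (0.996), went from 0.562 CPM in APP-PS1 PBS replicate 1 to 52.3 CPM in WT PBS replicate 5. The others were 1500015O10Rik (0.996), Tmem72 (0.994), Col8a1 (0.994), Wdr86 (0.994), Mfrp (0.992), Steap1 (0.992), Tmprss11a (0.991), Sulf1 (0.991) and Abca4 (0.989). These correlations share libraries and rest on the same 5 high libraries, and they carry no test.

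Of 47 further choroid plexus genes in the table, 41 were higher in all 5 libraries rich in Ttr than in all 10 others, and 44 were highest in WT PBS replicate 5. Those of highest mean level were Igf2, a growth factor (29.9 to 323 CPM), Trpm3, a cation channel (70.6 to 252 CPM), Htr2c, the serotonin receptor 2C (32.3 to 152 CPM), Cab39l (34.6 to 96.4 CPM), Vat1l (18.3 to 108 CPM) and the copper transporter gene Slc31a1 (24.0 to 90.3 CPM). Igf2 departed from Ttr in the lower libraries. It was at 124 CPM in WT PBS replicate 1, 148 and 90.6 CPM in APP-PS1 PBS replicates 3 and 4 and 96.3 CPM in anti-CD8a replicate 4, against 29.9 to 39.7 CPM in the other 6. Slc13a4, an anion transporter gene, was likewise at 24.9, 32.5, 16.0 and 13.9 CPM there and at 2.02 to 3.56 CPM in the other 6. The summed level of 12 fibroblast markers was 248, 317, 202 and 171 CPM in those 4 libraries and 58.3 to 127 CPM in the other 6. The libraries with raised Kcnj13 were 3 of those 4; in the other of them, anti-CD8a replicate 4, Kcnj13 was at 0.654 CPM.

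In 22 genes of fluid and ion transport, the pattern of Ttr held for 7: Kcne2, Slc4a2, Slc12a2, Slc12a4, Car12, Car14 and Trpv4 were higher in all 5 libraries rich in Ttr than in all others. Slc4a2, an anion exchanger gene, was at 41.7 to 78.2 CPM in the 5 and 23.3 to 31.8 CPM in the others. Abundant genes of the list did not divide this way. The genes Atp1b1 (1309 to 1689 CPM) and Atp1b2 (358 to 442 CPM), the bicarbonate transporter gene Slc4a10 (345 to 512 CPM) and the kinase gene Wnk1 (314 to 421 CPM) are expressed in many brain cells. Of 20 partners of the members (ligands, co-receptors and carriers), 1 showed the pattern: Cish, a feedback inhibitor of cytokine receptor signalling, at 2.87 to 4.33 CPM in the 5 and 1.59 to 2.58 CPM in the others.

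In each list of markers of other cells, 0 to 2 genes were higher in all 5 libraries rich in Ttr than in all others. Ependymal cells line the same ventricles, and all 12 of their markers were highest in WT PBS replicate 5; their sum was 111 CPM there, 48.5 to 69.4 CPM in the other 4 libraries rich in Ttr and 17.1 to 63.6 CPM in the lower 10, so the ranges overlap. Of the 12 markers, 2 were higher in all 5 than in all others. The corresponding counts were 0 of 12 for fibroblasts (sum 58.3 to 317 CPM), 0 of 8 for mural cells (230.1 to 326 CPM), 1 of 8 for endothelium (254 to 358 CPM), 0 of 7 for border macrophages (9.01 to 32.2 CPM) and 0 of 5 for red cells (8.47 to 28.4 CPM). Red cells also hold Aqp1, and their highest sum was in APP-PS1 PBS replicate 4, where Aqp1 was at 0.763 CPM. Retinal pigment epithelium shares Ttr, Otx2 and Kcnj13; 0 of its 8 markers divided this way (sum 22.1 to 32.2 CPM, mostly Rlbp1), with Rgr at most at 0.0668 CPM and Rpe65 at 0.438 to 1.29 CPM. For neurons the counts were 0 of 12 hippocampal markers (625 to 859 CPM), 0 of 9 thalamic, 0 of 7 cerebellar (36.6 to 105 CPM) and 1 of 8 striatal (73.7 to 124 CPM), and for general markers of neurons and astrocytes 0 of 10.

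**Figure D3:**
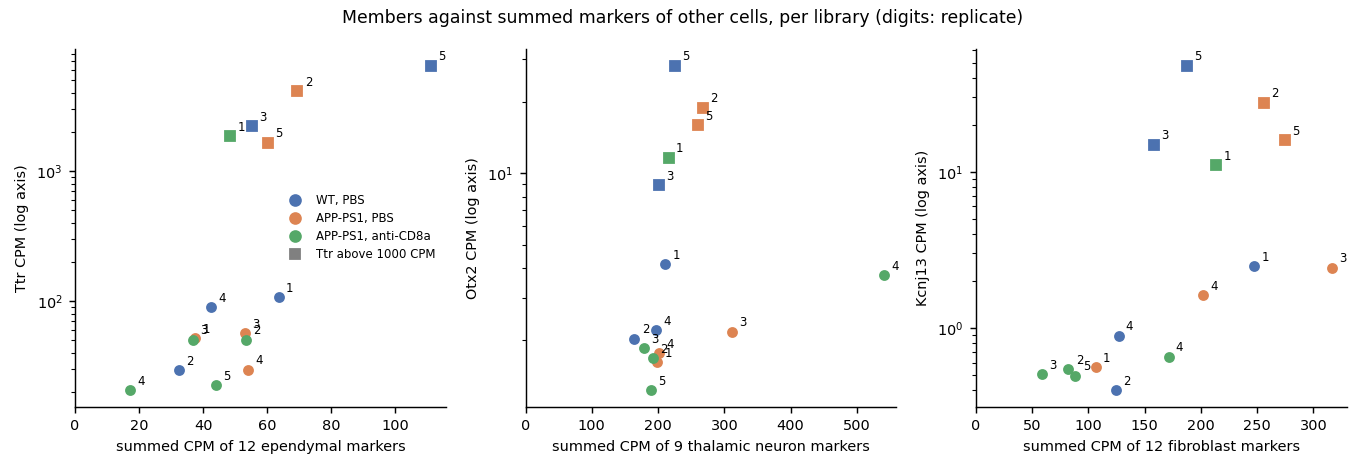
Ttr, Otx2 and Kcnj13 (CPM, log axes) against the summed CPM of ependymal, thalamic neuron and fibroblast markers; each point is a library, squares are above 1000 CPM of Ttr and digits are replicates. Anti-CD8a replicate 4 lies far right for thalamic markers (541 CPM) with 3.75 CPM of Otx2. Among the circles the highest Kcnj13 lies with the highest fibroblast sums. No relation shown in these panels was tested.

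The comparison of genotypes asked whether the transgenes alter these genes in mice given PBS. No member was called. Ttr was 1782 ± 2779 CPM in WT PBS and 1183 ± 1784 CPM in APP-PS1 PBS mice (SD, n = 5 each), with medians of 107 and 57.1 CPM, and its log2 fold change was −0.57 (SE 1.47, adjusted p = 0.917, edgeR's quasi-likelihood test over all genes). The estimates were lower in APP-PS1 PBS for 9 of 10 members, from −0.74 (Folr1) to −0.24 (Otx2), and Prlr was at 0.02. Their median was −0.47 against −0.01 over all genes, with standard errors of 0.59 to 1.47 and adjusted p of 0.843 to 0.997. Of all genes tested, 1.03% were called by edgeR, 1.9% by DESeq2 and 0.954% by limma-voom, and 11.5% had an unadjusted p under 0.05 in edgeR; of the members, none did by any of these, DESeq2 giving a p for 5 of them. The sign hung on single libraries: the median was 0.15 without WT PBS replicate 3, with 7 members higher, and 0.31 without WT PBS replicate 5, with 8 higher, and it was −1.72 without APP-PS1 PBS replicate 5 and −1.39 in limma-voom.

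The comparison of treatments asked what the antibody does in APP-PS1 mice. All 10 estimates were lower in anti-CD8a mice and none was called. Ttr was 401 ± 816 CPM in anti-CD8a mice (SD, n = 5; median 50.7 CPM), and its log2 fold change was −2.45 (SE 1.63, with adjusted p = 0.51 by edgeR). Kcnj13 was 2.65 ± 4.70 CPM against 9.66 ± 11.9 CPM (SD, n = 5 each), at −2.37 (SE 1.2, adjusted p = 0.399 in edgeR). Prlr was 18.3 ± 22.6 CPM against 53.8 ± 58.8 CPM (SD, n = 5 each), at −1.86 (SE 0.95, adjusted p = 0.404 in edgeR). The others lay between −0.91 (Kl) and −2.08 (Slc4a5), and the median of the 10 was −1.74 against 0.02 over all genes. The rates over all genes were 0% in edgeR, 0.754% in DESeq2 and 0% in limma-voom. At an unadjusted p under 0.05 in edgeR the rate was 13.3%, and 0 members were there. With sex taken from Xist and Y-linked expression 2 members were, beside 2964 of all 18974 genes. Without the low-count filter 4 were, beside 3057 of 33134 genes. In DESeq2, Kcnj13 had an unadjusted p under 0.05 and an adjusted p of 0.249. The anti-CD8a group has 1 library rich in Ttr and the APP-PS1 PBS group 2. Without the anti-CD8a one the median was −2.89, and without APP-PS1 PBS replicate 5 it was −0.64. Each shift follows from leaving out a library rich in Ttr. In limma-voom, with all libraries, the median was −0.93.

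Set against WT PBS, anti-CD8a mice had lower estimates for all 10 members, and again none was called. Log2 fold changes ran from −3.02 (Ttr, SE 1.65, adjusted p = 0.49 in edgeR) to −1.30 (Kl, SE 0.60, adjusted p = 0.405), with a median of −2.12 against −0.00 over all genes. Kcnj13 (−2.87, SE 1.19, adjusted p = 0.333) had the smallest p, followed by Clic6 (−1.86, SE 0.83, adjusted p = 0.381). Over all genes 1.94% were called by edgeR, 2.81% by DESeq2 and 1.74% by limma-voom. At an unadjusted p under 0.05 in edgeR the rate was 12.1%, and 3 of the 10 members (Kcnj13, Clic6 and Kl) were there. That count was 9 with sex taken from expressed Xist and Y-linked genes, where 2528 of all 18974 genes were under 0.05. It was 10 with the 2 groups alone (2338 of 18534 genes) and 10 without the low-count filter (2909 of 33134 genes). Without the sex covariate it was 0 (2225 of 18974 genes). The only WT PBS library labelled male, replicate 5, was also the highest for all 10 members. Within WT PBS, sex and that library therefore cannot be told apart. This comparison shares its libraries with the 2 above. Without anti-CD8a replicate 1 the median was −3.24, and without WT PBS replicate 5 it was −1.21. No member had an adjusted p under 0.05 in either refit. Both are libraries rich in Ttr, so each shift follows from leaving out such a library.

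For each member and comparison, an exact permutation test was also run on the difference in mean log2(CPM + 1) over the 252 splits of 10 libraries, where the smallest possible p is 0.00794. The 30 exact p values, two-sided and unadjusted, ran from 0.683 to 0.992 for genotype, from 0.175 to 0.556 for treatment and from 0.151 to 0.349 for anti-CD8a against WT PBS. For each member the ranges of all 3 groups overlapped.

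Among the 10 libraries without high Ttr, which were chosen by the level of a member, the differences are given as a description. For treatment, Prlr was lower in anti-CD8a mice by a log2 fold change of −0.44 (7.5 to 9.87 CPM in 4 libraries against 10.6 to 11.3 CPM in 3). These ranges did not overlap, but the share of all genes that separate in so few libraries was not counted, so no result is read from it. Kcnj13 differed by −1.47 (0.495 to 0.654 CPM against 0.562 to 2.43 CPM), with overlapping values. Kl (−0.04), Enpp2 (−0.04), Slc4a5 (−0.11) and Folr1 (−0.17) were near 0, Clic6 (−0.62) and Ttr (−0.56) were lower, and Aqp1 (0.14) and Otx2 (0.22) were higher. The median of the 10 fell from −1.74 with all libraries to −0.14. For genotype it was −0.09, and for anti-CD8a against WT PBS −0.39, with Kcnj13 at −1.23 and Ttr at −0.91.

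**Figure D4:**
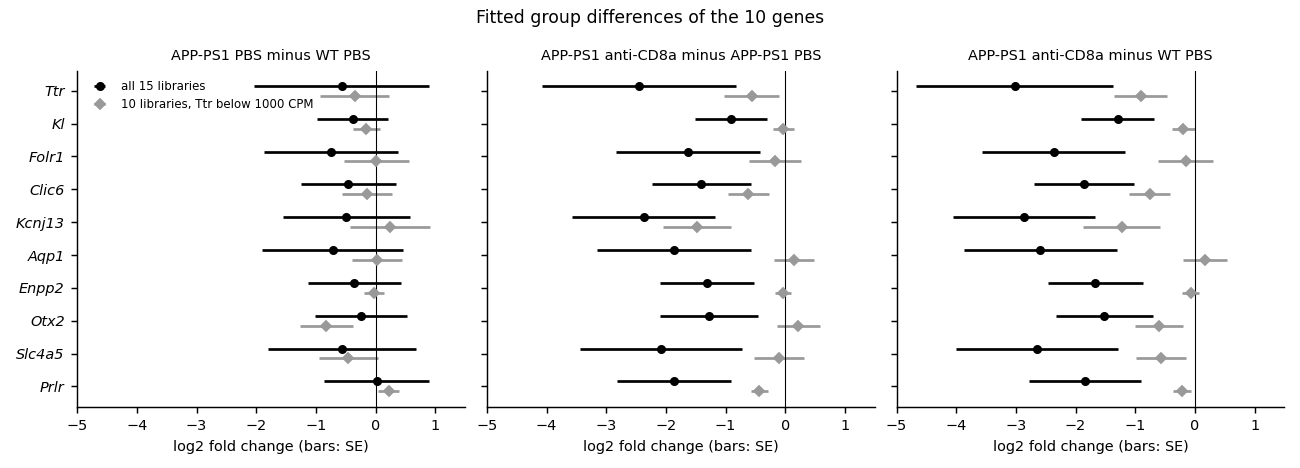
Log2 fold changes of the 10 genes in the 3 comparisons, with bars of 1 standard error; black circles use all 15 libraries and grey diamonds the 10 below 1000 CPM of Ttr. With all libraries the estimates reach −3.02 with wide bars, and without the 5 libraries they lie between −1.47 and 0.24, Kcnj13 under treatment being the lowest.

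Other genes of the tissue are given by counts. Of 46 further choroid plexus genes tested, 42, 45 and 46 had a lower estimate for genotype, treatment and anti-CD8a against WT PBS, none was called in any, and the medians were −0.43, −1.0 and −1.55. At an unadjusted p under 0.05 in edgeR there were 1, 5 and 29 of the 46, beside 11.5%, 13.3% and 12.1% of all genes. Without the 5 libraries rich in Ttr the medians of the 41 tested were 0.05, −0.27 and −0.26. At that p, 1 was lower and 1 higher for genotype, and 9 were lower and 1 higher for treatment. For anti-CD8a against WT PBS 5 of the 41 were lower and none higher. Beside these stood 1055, 1281 and 1753 of the 19086 genes tested in those libraries, in either direction. Of 22 fluid and ion transport genes, 1 was called higher, for genotype: Aqp4, the water channel gene of astrocytes, rose by 0.46 on the log2 scale (SE 0.10, adjusted p = 0.0459 in edgeR). In order of size, Aqp4 stood at 193, 204, 207, 215 and 240 CPM in WT PBS. In APP-PS1 PBS mice it stood at 271, 272, 282, 298 and 343 CPM. These ranges did not overlap, but the share of all genes that separate in this way was not counted. No result is read from the separation. Of all genes tested, 1.03% were called for genotype in edgeR. Without the 5 libraries rich in Ttr, 0 of the 22 were called for genotype. Of the 19 tested partners none was called in any comparison. Fibroblast markers are set beside these values: all 12 had a lower estimate in anti-CD8a than in APP-PS1 PBS mice (median −1.0, 0 called, 5 at an unadjusted p under 0.05), with overlapping sums of 58.3 to 213 CPM against 106 to 317 CPM, and their part in the estimates of Kcnj13 and Igf2 was not tested. All 12 ependymal markers were lower as well (median −0.49, 0 called).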

How the data were processed

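The authors deposited raw read counts per gene for 15 libraries made with a stranded poly(A) kit, per the labels' protocols; FastQC, Bowtie2 2.2.2, HTSeq 0.11.2, DESeq2 and the build GRCm38 are named in the submitters' processing notes. Bowtie2 makes no spliced alignments, so reads over exon junctions can be missed. The sources used here give neither the annotation nor the strand setting. The table's 5 summary lines entered neither library sizes nor tests.

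From the deposited counts, CPM were computed with TMM scaling. Tests were edgeR 4.0.16 (R 4.3.3) quasi-likelihood fits of all 15 libraries on group and labelled sex (11 residual degrees of freedom), over the 18974 genes that filterByExpr kept, with Benjamini-Hochberg adjustment and a call at 0.05. The scripts were tested on simulated data. Alternatives were DESeq2 1.42.0, limma-voom (limma 3.58.1), other size factors, filters and covariates, fewer libraries and an exact permutation test. Gene positions come from GENCODE M21. The members, lists and tests were chosen with earlier results of these data known. Named genes were the members, the 6 of highest mean CPM or called genes of 2 lists, and the 12 genes of most similar profile; Slc13a4, Cish and the other genes named for their pattern were chosen after their values were seen. Some genes under this rule are not reported here.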

Additional observations from a re-analysis of the deposited data

Results flagged for a closer look

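In groups of 5 libraries, a CPM value was singled out when its gap to the nearest other library exceeded 0.71 of the group's range (Dixon's ratio at 95%). Chance gives this in about 1 in 20 groups of normally distributed values. The rate can differ for CPM without logarithms, and the share of all genes singled out was not counted. Of 30 pairs of gene and group, 11 were singled out, and they are not independent because the genes share libraries. In the anti-CD8a group, replicate 1 stood apart for all 10 members: Ttr (1860 CPM), Kl (91.6 CPM), Folr1 (17.3 CPM), Clic6 (44.1 CPM), Kcnj13 (11.0 CPM), Aqp1 (13.9 CPM), Enpp2 (1100 CPM), Otx2 (11.6 CPM), Slc4a5 (17.3 CPM) and Prlr (58.6 CPM). In WT PBS, replicate 5 stood apart for Otx2 (28.3 CPM). No value was singled out in APP-PS1 PBS, where 2 libraries were high for each gene.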

How the results depend on the processing

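No member was called in any comparison under any alternative run; DESeq2 gave no p for 5 members (Ttr, Folr1, Aqp1, Slc4a5 and Prlr), whose counts it set aside for an extreme library. Estimates for treatment and for anti-CD8a against WT PBS kept their sign except without the 5 libraries rich in Ttr, where Aqp1 was at 0.14 and 0.17 and Otx2 at 0.22 for treatment. For genotype 26 of 195 estimates changed sign. Without those 5 libraries Aqp1 was at 0.024, Folr1 at 0.0154 and Kcnj13 at 0.24. Prlr was at −0.84 in limma-voom, −0.0422 without the sex covariate and −0.0014 with the animal number series as a covariate.

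Leaving out each library in turn, the genotype estimates ran from −2.94 to 0.99 (Ttr), −1.02 to 0.33 (Kl), −2.23 to 0.0837 (Folr1), −1.43 to 0.38 (Clic6), −1.94 to 0.29 (Kcnj13), −2.27 to 0.25 (Aqp1), −1.24 to 0.41 (Enpp2), −1.49 to 0.52 (Otx2), −2.36 to 0.47 (Slc4a5) and −1.37 to 0.845 (Prlr).

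Over all genes, 195 were called for genotype: 361 with DESeq2, 115 without the sex covariate and 98 without the libraries rich in Ttr. For treatment 0 were called (2529 at an unadjusted p under 0.05 in edgeR): 143 with DESeq2, 13 without the low-count filter, 1 with the 2 groups alone and 0 to 2 leaving out each library. For anti-CD8a against WT PBS 369 were called: 221 with the 2 groups alone, 199 without the libraries rich in Ttr and 140 to 441 leaving out each library, the lowest without anti-CD8a replicate 3. The limma-voom median of the members was −1.39 for genotype, −0.93 for treatment and −2.59 for anti-CD8a against WT PBS. No paired analysis was possible because the labels give no replicate numbers shared between groups. Counts as low as 9 to 16 stand behind the lowest values of Slc4a5, Folr1, Kcnj13 and Aqp1, and intervals of counting would cover counting error only.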
